A study of Mus musculus with 8 samples.

Results

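RN2 is a mouse acute myeloid leukaemia line, and the values described here are those of its cells kept in the solvent DMSO, without an inhibitor. The DMSO libraries were chosen by the treatment in the labels, which gave 2 of the 8 RNA-seq libraries of the study, and all 20484 genes of the table were ranked by their mean over both. Per the labels, the cells are of the C57BL/6J strain and carry 2 engineered lesions, MLL-AF9 and an NRAS change written there as G112D, and all groups of the study share these alleles. The other 6 libraries received compounds and were not used. The labels do not state the dose of DMSO or the time in it, and they call the libraries biological replicates. They do not say whether the line is a clone, and the study holds no normal blood cells, so the levels have no healthy counterpart beside them. With 2 libraries of a single group there was nothing to test, and no p-value is given.

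MLL-AF9 joins the DNA-binding part of the histone methyltransferase MLL to AF9, a protein that recruits the transcription elongation machinery and DOT1L. The fusion is known to keep a programme of progenitor genes active, with the homeobox genes Hoxa9 and Meis1 at its centre, and activated RAS supplies a growth signal through the ERK kinases. Such cells resemble granulocyte and monocyte progenitors, which in normal marrow fill their primary granules with proteases before they mature.

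Levels are in RPKM, reads scaled to transcript length and to library size, which allows genes of unlike length to be set side by side. Values are given as replicate 1 and then replicate 2, and a mean ± SD is over n = 2 libraries. A gene was called detected at 1 RPKM or more in both libraries, which held for 9523 of 20484 genes (46.5% of all genes, against which the counts of the lists below are to be read). Another 7469 genes (36.5%) were listed at 0 in both. The median of the mean RPKM was 0.405 over all genes and 14.7 over the detected ones. Of the detected genes, 9278 were annotated as protein-coding, 25 as another type, and 220 had no match in the annotation. The depth, estimated from the lowest values, was about 18000000 and 12000000 reads.

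The libraries differed with the exon length of the gene. This length is the union of all annotated exons of a gene and can exceed that of its transcripts. Over genes with under 500 exon nucleotides the median log2 ratio of replicate 1 to replicate 2 was 0.34, and over those with more than 8000 it was -0.19, on the log2(RPKM + 1) scale. Over all detected genes the median size of the difference was 0.14 and its 95th percentile was 0.41 on the same scale. Short genes were thus higher in replicate 1 and long genes higher in replicate 2, and the cause was not tested. Some genes that every cell uses were listed at 0. Rpl34 and Rps27, ribosomal protein genes, were listed at 0 in both libraries, while their copies Rpl34-ps1 (1381 and 1165 RPKM) and Rps27rt (1215 and 857 RPKM) were high. Eno1, an enolase of glycolysis, was likewise listed at 0 while Eno1b stood at 347 and 343 RPKM. A value of 0 is therefore given below as listed at 0, not as absence.

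**Figure D1:**
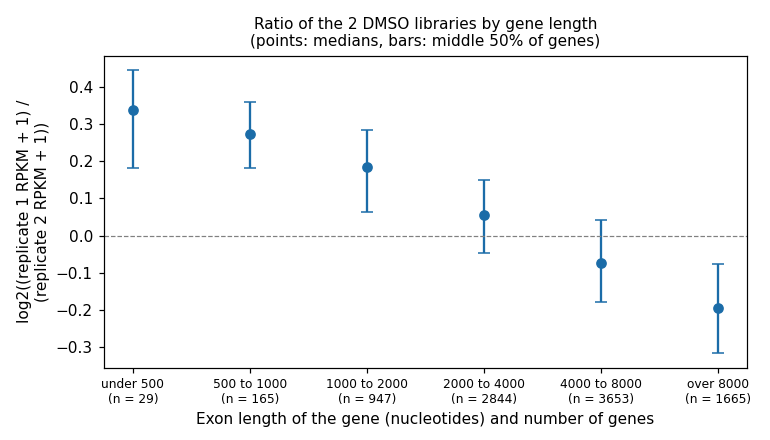
The x axis groups detected genes by exon length in nucleotides, the union of all annotated exons of a gene. The y axis is the log2 ratio of replicate 1 to replicate 2, each as RPKM + 1. Points are medians and bars span the middle 50% of genes, and the median falls from 0.34 in the 29 shortest genes to -0.19 in the 1665 longest.

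The 3 genes named as markers of the line were all detected. Hoxa9, a homeobox transcription factor that MLL fusions keep active, stood at 77.2 and 69.2 RPKM (chromosome 6, 52223100 to 52231089, minus strand, mm10). Myb, a transcription factor of haematopoietic progenitors, stood at 273 and 275 RPKM (chromosome 10, 21124935 to 21160984, minus strand). Mpo, the myeloperoxidase of primary granules, stood at 287 and 292 RPKM (chromosome 11, 87793581 to 87804413, plus strand). Their ranks among all genes were 1051, 238 and 225. The libraries lay close together for each of them. Detection, which 46.5% of all genes reached, does not by itself identify a leukaemia line, and there were no normal cells to compare.

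The most abundant transcripts came largely from protein synthesis, with cytoskeletal and myeloid genes among the others. Eef1a1, the elongation factor that brings tRNA to the ribosome, was the highest gene at 4314 and 4130.3 RPKM and held 0.941 ± 0.0270% of the summed RPKM. The 10 highest genes held 6.14 ± 0.366%, the 100 highest 30.2 ± 1.72% and the 1000 highest 65.2 ± 2.04%. Of the 40 highest genes, 22 encode cytosolic ribosomal proteins, led by Rplp1 (3619 and 2897 RPKM) and Rpl41 (2531 and 1895 RPKM). Among the 100 highest, 59 were ribosomal and 6 belonged to the primary granule list. Mitochondrially encoded genes are not analysed here.

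Outside the ribosome, the 40 highest genes fell into a few kinds. Ptma, a small acidic nuclear protein of dividing cells, stood at 3092 and 2876 RPKM. The cytoskeleton was represented by Actb, beta-actin (2860.2 and 2674 RPKM), Tmsb4x, which binds actin monomers (2401 and 2027 RPKM), and Cfl1, which severs actin filaments (1488 and 1328 RPKM). Arhgdib, an inhibitor of small GTPases found in blood cells, stood at 1518 and 1332 RPKM. Ppia, a prolyl isomerase, stood at 2349.7 and 2053 RPKM, Hspa8, the constitutive HSP70 chaperone, at 1708 and 1759.6 RPKM, and Tpt1, a translationally controlled protein, at 2497 and 2136 RPKM. Ftl1, the ferritin light chain, stood at 1884 and 1803 RPKM.

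Myeloid genes made up most of the remainder. Stfa1 (3215 and 2474 RPKM) and BC100530 (2992 and 2061 RPKM) belong to a cluster of near-identical stefin genes, which encode inhibitors of cysteine proteases, so the division of reads between them is uncertain. Ctsg, Elane, Slpi, S100a8, Ly6c2 and Plac8 completed the set. Slpi, an inhibitor of the neutrophil serine proteases, stood at 1879 and 1533 RPKM. Of the 40 genes 39 were higher in replicate 1, the direction given above for short genes, and Hspa8 was higher in replicate 2. Exons of 7 of the 40 overlap a gene on the opposite strand, and the labels and notes do not state whether counting used the strand. The rank of 40 fell between Rpl28 (1383 ± 198 RPKM) and S100a9 (1381 ± 197 RPKM), whose means nearly coincide.

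**Figure D2:**
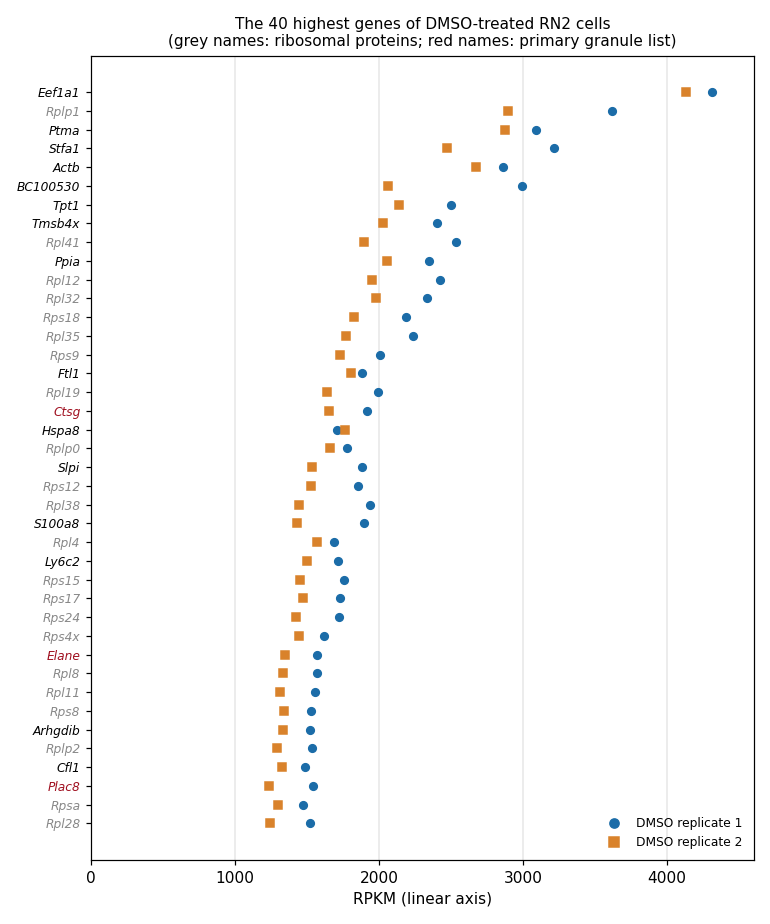
The x axis is RPKM on a linear scale, and the rows are the 40 genes with the highest mean, from Eef1a1 at the top. Circles are replicate 1 and squares replicate 2, grey names are ribosomal proteins and red names belong to the primary granule list, of which Ctsg, Elane and Plac8 are shown.

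The primary granule genes are presented with the stretches of DNA around their starts, because 4 of them and Hoxa9 are the genes by which the stage and the oncogene programme of these cells are described. Each window holds 250 bases before and 50 after the start given by RefSeq on GRCm38.p6, the mm10 assembly, and this start can differ from the start of the GENCODE gene. Capitals mark matches on either strand to GAGGAAG, which contains the core letters of sites bound by ETS factors such as PU.1, to CCAAT, to TATAAA or to TTGCNNAA, a motif of C/EBP factors. Elane and Prtn3 are on the plus strand at chr10:79886062-79886361 and chr10:79879417-79879716, Ctsg on the minus strand at chr14:56102525-56102824, Mpo on the plus strand at chr11:87793534-87793833 and Hoxa9 on the minus strand at chr6:52227321-52227620. The sequences are written 5′ to 3′ on the strand of the gene.
Elane: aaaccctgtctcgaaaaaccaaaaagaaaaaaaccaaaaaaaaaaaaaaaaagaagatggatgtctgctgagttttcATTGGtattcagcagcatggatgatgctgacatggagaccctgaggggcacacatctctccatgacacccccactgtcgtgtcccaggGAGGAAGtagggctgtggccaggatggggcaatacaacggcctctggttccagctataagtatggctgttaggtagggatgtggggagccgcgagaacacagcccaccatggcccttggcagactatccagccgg
Prtn3: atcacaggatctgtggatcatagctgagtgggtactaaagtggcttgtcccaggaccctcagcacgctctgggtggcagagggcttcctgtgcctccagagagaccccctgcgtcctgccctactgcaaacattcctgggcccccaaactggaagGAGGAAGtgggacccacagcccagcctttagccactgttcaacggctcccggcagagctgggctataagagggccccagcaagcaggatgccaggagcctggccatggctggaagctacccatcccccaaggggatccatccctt
Ctsg: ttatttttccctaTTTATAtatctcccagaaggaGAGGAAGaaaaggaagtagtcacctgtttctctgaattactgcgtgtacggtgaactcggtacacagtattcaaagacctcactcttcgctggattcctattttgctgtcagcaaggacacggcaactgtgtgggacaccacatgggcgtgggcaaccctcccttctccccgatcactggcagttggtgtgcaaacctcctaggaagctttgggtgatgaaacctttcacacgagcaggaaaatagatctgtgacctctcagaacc
Mpo: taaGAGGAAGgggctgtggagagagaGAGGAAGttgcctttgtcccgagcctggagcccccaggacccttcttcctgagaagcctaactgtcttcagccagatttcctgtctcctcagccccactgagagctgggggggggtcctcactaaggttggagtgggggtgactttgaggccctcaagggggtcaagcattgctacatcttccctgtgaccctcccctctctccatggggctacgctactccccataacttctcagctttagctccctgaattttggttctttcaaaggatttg
Hoxa9: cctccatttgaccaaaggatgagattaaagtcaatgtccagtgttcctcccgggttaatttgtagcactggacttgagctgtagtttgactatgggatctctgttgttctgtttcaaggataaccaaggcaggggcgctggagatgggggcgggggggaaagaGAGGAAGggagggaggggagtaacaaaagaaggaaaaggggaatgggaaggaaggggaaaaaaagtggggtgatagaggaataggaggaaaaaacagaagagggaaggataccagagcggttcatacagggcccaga

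GAGGAAG was found in all 5 windows printed above. Its first base lay 85 bases before the start in Elane, 95 in Prtn3, 216 in Ctsg and 87 in Hoxa9, and Mpo held it at 247 and at 224 bases before the start. The window of Elane also held CCAAT on the other strand, 173 bases before the start, and that of Ctsg held TATAAA on the other strand, 237 bases before the start. Over all 32851 RefSeq windows of this length, 13.6% held GAGGAAG, 37.4% CCAAT, 13.6% TATAAA and 10.8% TTGCNNAA. Of the 17 primary granule genes 14 had a window, and 5 of these (35.7%) held GAGGAAG. Elane, Prtn3, Ctsg and Mpo are among these 5, so the windows printed do not stand for the list. Nor was the share particular to granule genes. GAGGAAG was held by 37.5% of the 16 BCL2 family windows and 50% of the 24 surface antigen windows, but by 0% of the 21 fatty acid oxidation windows. The window of Rpl41, which was also searched but is not printed, held none of these motifs. A match describes letters only and does not show that a factor binds.

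The primary granule list had a high median and a wide range. All 17 of its members in the table were detected and 10 of them reached 100 RPKM, the median of their mean RPKM was 328 against 0.405 over all genes, and the list held 2.02 ± 0.0810% of the summed RPKM. Ctsg, which encodes the serine protease cathepsin G, stood at 1918 and 1654 RPKM. Elane, neutrophil elastase, stood at 1566 and 1346 RPKM and Prtn3, proteinase 3, at 1038 and 907 RPKM. Each of the 3 proteases lay above Mpo in both libraries, with Ctsg at 6.18 ± 0.727 times, Elane at 5.04 ± 0.603 times and Prtn3 at 3.37 ± 0.366 times the level of Mpo per length. Exons of Prtn3 overlap Plppr3 on the opposite strand. In bulk RNA, here and for every list, fewer cells of a type and less RNA per cell cannot be told apart.

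The other members of the list reached from a few RPKM to over 1000. Plac8, a small protein of myeloid progenitors, stood at 1540.4 and 1235 RPKM, Calr, a chaperone of the endoplasmic reticulum that helps fold myeloperoxidase, at 1009 and 1011 RPKM, and Srgn, the proteoglycan that packs granule proteases, at 967 and 748 RPKM. Ms4a3, a marker of granulocyte and monocyte progenitors, stood at 363 and 325 RPKM. Both transcription factors on the list were detected, Cebpe, required for the later granulocyte stages, at 84.4 and 81.8 RPKM and Gfi1, a repressor that favours granulocytes, at 46.7 and 47.5 RPKM. The lowest members were Fcnb, a ficolin (6.88 and 6.58 RPKM), Nkg7 (4.56 and 2.71 RPKM) and Prss57, a granule serine protease (3.22 and 2.89 RPKM). The protease genes were thus not uniformly high.

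Genes of the late neutrophil list, not all of which encode granule proteins, were uneven. Of 20 members 13 were detected, and their median of 4.21 RPKM lay well below that of the primary granule list. S100a8 (1896 and 1429 RPKM) and S100a9 (1521 and 1242 RPKM), which form the calcium-binding complex calprotectin, were by far the highest of the list. Ngp, neutrophilic granule protein, stood at 91.7 and 76.4 RPKM and Lcn2, the iron-withholding lipocalin, at 33.2 and 32.5 RPKM. Ltf and Camp, granule genes of the same list, were lower than Ngp and Lcn2. Ltf, lactoferrin, stood at 3.94 and 3.97 RPKM and Camp, cathelicidin, at 9.98 and 9.18 RPKM, and S100a8 was 420.4 ± 85.5 times as high as Ltf per length. Mmp8, a collagenase, stood at 0.996 and 0.695 RPKM, Cxcr2, the chemokine receptor of mature neutrophils, at 1.10 and 0.770 RPKM and Ly6g, their surface marker, at 0.146 and 0.109 RPKM.

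Monocyte genes also spanned a wide range. Of 25 members 19 were detected, with a median of 11.9 RPKM. Ly6c2, a surface protein of inflammatory monocytes and their progenitors, stood at 1718 and 1500.2 RPKM, and Lyz2, the lysozyme of myeloid cells, at 454 and 415 RPKM. Emb, an adhesion protein, stood at 283 and 269.9 RPKM and Ly6c1 at 249 and 202 RPKM, although Ly6c1 and Ly6c2 are near-identical and their reads may be divided wrongly. Irf8, the transcription factor that favours monocytes, stood at 43.5 and 46.1 RPKM and Ccr2, the receptor that draws monocytes to tissue, at 21.2 and 21.0 RPKM. Csf1r, the receptor for macrophage growth factor, stood at 7.45 and 8.38 RPKM, and Ly6c2 was 205 ± 36.5 times as high as it per length. Klf4 (0.0917 and 0.110 RPKM), a factor of later monocytes, lay below 1 RPKM, and Fcgr1, a high-affinity receptor for antibodies, was listed at 0 in both libraries.

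Markers of mature macrophages and dendritic cells were mostly below the detection level. Of 20 macrophage genes 6 were detected, led by Cd68, a lysosomal protein (36.8 and 34.5 RPKM), Adgre1, which encodes F4/80 (16.5 and 17.9 RPKM), Gpnmb (9.83 and 8.82 RPKM) and Apoe (5.72 and 6.29 RPKM). Mertk, C1qa, Marco, Timd4, Vsig4, Siglec1 and Cd5l, 7 genes of phagocytic and tissue-resident macrophages, were listed at 0 in both libraries. Of 17 dendritic cell genes 4 were detected, namely Bst2 (32.3 and 30.2 RPKM), Tcf4 (19.1 and 19.9 RPKM), H2-Ab1 (2.75 and 2.14 RPKM) and Itgax (1.02 and 1.26 RPKM). Siglech, Batf3, Ccr7, Ly6d and Cd209a were listed at 0 in both.

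The mast cell and basophil list lay near the level of all genes. Of 15 members 7 (46.7%) were detected, against 46.5% of all genes, and the median of the list was 0.592 RPKM. The detected members included Hdc, which makes histamine (27.0 and 24.5 RPKM), Mcpt8, a basophil protease (22.4 and 17.2 RPKM), and Cpa3, a carboxypeptidase of mast cells (13.4 and 12.03 RPKM). Kit and Gata2, which progenitors also express, were among the 7. Fcer1a, the alpha chain of the high-affinity IgE receptor, was listed at 0 in both libraries, as were Prss34, Tpsab1, Tpsb2 and Il4, while Ms4a2, the beta chain of that receptor, stood at 1.19 and 2.002 RPKM.

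The remaining lineages were close to the floor. Siglecf (1.24 and 1.53 RPKM) was the single detected gene of 10 for eosinophils, and Epx, eosinophil peroxidase, was listed at 0 in replicate 1 and at 0.0314 RPKM in replicate 2. Of 18 erythroid and megakaryocyte genes 4 were detected, and the highest was Tfrc, the transferrin receptor (105 and 117 RPKM), which all dividing cells use. The haemoglobin genes Hba-a2 and Hbb-bs were listed at 0 in both, and Slc4a1 and Ppbp were likewise listed at 0 in both. No B cell gene of 15 and no T or NK cell gene of 19 was detected, and Pax5, Ebf1, Cd3e, Cd3g, Cd4 and Cd8a were among the 8 and 12 listed at 0. Of 14 genes of fibroblasts and stroma, Pdgfrb was detected at 3.39 and 3.85 RPKM, while Col1a2, Col3a1, Pdgfra, Dcn, Lum, Cxcl12 and Kdr were listed at 0.

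**Figure D3:**
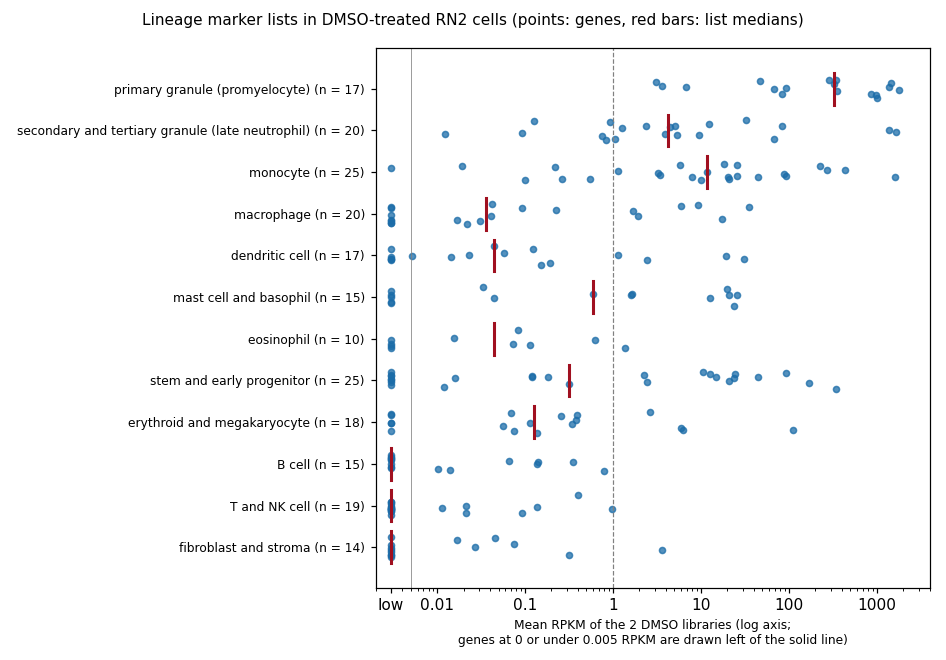
The x axis is the mean RPKM of both libraries on a log scale, with genes at or next to 0 drawn in a column left of the solid line, and each row is a list of lineage markers, with points for genes and red bars for list medians. The primary granule list has its median at 328 RPKM, the monocyte list at 11.9 and the late neutrophil list at 4.21, while the medians of the B cell and of the T and NK cell lists are at 0.

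Genes of stem cells and early progenitors were split. Of 25 members 12 were detected (48%, near the 46.5% of all genes). Lmo2, an adaptor of transcription factor complexes, stood at 364 and 336 RPKM, Cd34, a surface protein of progenitors, at 171 and 168 RPKM, and Lyl1, a helix-loop-helix factor, at 98.5 and 90.4 RPKM, although exons of Lyl1 overlap Nfix. Kit, the receptor for stem cell factor, stood at 22.7 and 25.6 RPKM, Gata2 at 20.2 and 21.3 RPKM and Erg at 12.5 and 12.7 RPKM. The genes most closely tied to long-term stem cells lay at the floor. Hlf stood at 0.00953 and 0.0143 RPKM, Procr at 0.241 and 0.120 RPKM and Ly6a, which encodes Sca-1, at 0.139 and 0.104 RPKM. Slamf1, Tek, Mecom, Robo4 and Hoxb5 were listed at 0 in both libraries. Flt3, a receptor of early lymphoid and myeloid progenitors, stood at 0.347 and 0.294 RPKM.

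Among 48 haematopoietic transcription factors 34 were detected, with a median of 13.3 RPKM. After Lmo2 and Myb the highest were Spi1, which encodes PU.1, the factor that sets the myeloid fate (158 and 148 RPKM), and Nfe2, known best from megakaryocytes (148 and 136 RPKM). Within the C/EBP family, Cebpe held 51.2 ± 1.99% of the summed level and stood 2.10 ± 0.0419 times as high as Cebpa (40.7 and 38.4 RPKM), the factor that starts the granulocyte programme. Cebpb (16.2 and 12.9 RPKM) and Cebpd (16.3 and 11.7 RPKM) were lower. Of the RUNX genes, Runx2 (23.7 and 28.7 RPKM) and Runx3 (20.8 and 21.4 RPKM) both lay above Runx1 (5.11 and 5.46 RPKM), the member required for the origin of blood stem cells. Gata1, the erythroid factor, stood at 0.184 and 0.0460 RPKM, and Ebf1, Pax5, Bcl11a and Id3 were listed at 0.

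The oncogene programme began with the Hoxa cluster, which was the only HOX cluster detected. Of its 11 genes 8 were detected, whereas 0 of the 28 genes of the Hoxb, Hoxc and Hoxd clusters were, and 24 of these were listed at 0 in both libraries. Hoxa9 was followed by Hoxa10 (25.4 and 22.4 RPKM), Hoxa7 (13.8 and 15.5 RPKM) and Hoxa5 (7.73 and 7.99 RPKM), all transcription factors of the same cluster, and Hoxa9 was 3.07 ± 0.0305 times as high as Hoxa10 per length. Hoxa6 (2.23 and 4.93 RPKM), Hoxa3 (2.87 and 2.34 RPKM) and Hoxa4 (1.97 and 1.24 RPKM) were low, and Hoxa11 and Hoxa13 at the 5′ end of the cluster were listed at 0. The highest gene of the other clusters was Hoxb4 at 0.485 and 0.397 RPKM.

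HOX proteins bind DNA together with TALE partners, of which 7 of 11 were detected. Meis1, the partner most often named beside Hoxa9 in leukaemia, stood at 10.5 and 10.6 RPKM, so that Hoxa9 was 6.94 ± 0.589 times as high per length. Pbx3 (33.4 and 32.1 RPKM) lay above Pbx2 (14.9 and 14.6 RPKM) in both libraries, and Meis2 was listed at 0.

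Of 25 genes described as targets of MLL fusions, 21 were detected, with a median of 18.2 RPKM. The highest after Lmo2 and Myb were Cdk6, a kinase of the G1 phase (66.5 and 86.9 RPKM), Hoxa9, Mef2c, a transcription factor of progenitors (42.7 and 50.5 RPKM), and Igf2bp3, an RNA-binding protein of fetal tissue (34.8 and 36.1 RPKM). Flt3 lay below 1 RPKM, Eya1 stood at 0 and 0.0195 RPKM, and Mecom and Zfp521 were listed at 0 in both.

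The machinery that the fusion works with was expressed at moderate levels. Of 29 genes of the MLL complex, the super elongation complex and DOT1L, 27 were detected, with a median of 17.9 RPKM. Dpy30 (115 and 92.5 RPKM) and Wdr5 (50.6 and 50.3 RPKM), core subunits that stimulate methylation, were the highest with Hcfc1, a large scaffold protein (34.4 and 48.6 RPKM), and Paf1 of the elongating polymerase (40.8 and 40.4 RPKM). Kmt2a, which encodes MLL itself, stood at 24.8 and 37.1 RPKM, Mllt3, which encodes AF9, at 25.04 and 24.5 RPKM, Men1, the menin that tethers MLL, at 18.9 and 20.3 RPKM, and Dot1l at 12.3 and 17.9 RPKM. Kmt2a and Dot1l were both higher in replicate 2, the direction of the trend for long genes. The table cannot separate reads of the engineered fusion from those of the mouse genes.

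BET proteins read acetylated histones and support elongation. Brd2 stood at 63.9 and 71.7 RPKM and Brd3 at 13.9 and 16.6 RPKM, and the testis gene Brdt lay at 0.0347 and 0.0173 RPKM. Brd2 lay above Brd3 in both libraries, although H2-DMa, on the other strand, shares exon positions with Brd2. Over the whole list of 15 BET genes and acetylation partners 14 were detected, and 12 of the 15 were higher in replicate 2, as long genes were. Cdk9, the kinase of P-TEFb, stood at 36.1 and 32.8 RPKM, and Hexim1, its inhibitor, at 23.9 and 22.7 RPKM.

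Myc was the sole detected member of its paralogues. Myc, the growth-promoting transcription factor, stood at 99.7 and 95.9 RPKM and held 99.9 ± 0.0140% of the summed level, while Mycl stood at 0.0505 and 0.0504 RPKM and Mycn at 0.0218 and 0 RPKM. Max, the partner through which MYC binds DNA, stood at 44.8 and 41.9 RPKM, and Mlx, the corresponding partner of a parallel branch, at 46.8 and 44.1 RPKM. Of the antagonists, Mxi1 (22.5 and 20.1 RPKM) was the highest, followed by Mxd4 (7.88 and 11.2 RPKM) and Mxd1 (7.86 and 8.71 RPKM), and Mxd3 was listed at 0. In all, 10 of 14 genes of the network were detected.

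Nras was expressed well above Hras. It stood at 159.5 and 164 RPKM (chromosome 3, 103058285 to 103067914, plus strand), 10.5 ± 1.08 times as high per length as Hras (16.4 and 14.5 RPKM). Reads of the engineered NRAS and of the mouse's own Nras cannot be told apart in the table. Of 23 genes between RAS and ERK 22 were detected. Of the RAF kinases, Araf (31.0 and 31.3 RPKM) lay above Braf (5.41 and 7.13 RPKM), and both MEK genes (Map2k2 at 36.3 and 32.8 RPKM, Map2k1 at 28.2 and 27.5 RPKM) and the ERK gene Mapk3 (59.5 and 59.9 RPKM) were detected. Nf1, which switches RAS off, stood at 2.58 and 3.44 RPKM.

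Genes that ERK signalling is known to induce were expressed unevenly. Of 21 members 15 were detected, with a median of 9.98 RPKM. Dusp6, the phosphatase that acts on ERK, stood at 61.9 and 61.3 RPKM, Ccnd1, cyclin D1, at 35.9 and 38.7 RPKM, the ETS factor Etv4 at 25.5 and 26.0 RPKM and its relative Etv5 at 17.4 and 19.6 RPKM. Spry2, a feedback inhibitor, stood at 18.6 and 18.0 RPKM, while its relatives Spry1 (0.213 and 0.359 RPKM) and Spry4 (0.166 and 0.196 RPKM) lay below 1 RPKM. Dusp1 (0.750 and 0.945 RPKM) and Phlda1 (0.686 and 0.715 RPKM) also lay below it.

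Receptors for several myeloid growth factors were expressed. Of 27 receptor genes 22 were detected. Ifngr1, a chain of the interferon gamma receptor, was the highest at 179.7 and 164 RPKM, followed by Cxcr4, which holds cells in the marrow (83.5 and 75.7 RPKM), and Ifnar2 (46.5 and 46.1 RPKM). For the growth factors IL-3 and GM-CSF, the shared chain Csf2rb stood at 40.6 and 48.0 RPKM, Csf2ra at 35.7 and 33.2 RPKM and Il3ra at 14.9 and 15.1 RPKM. Csf3r, the receptor for G-CSF, was lower at 4.73 and 5.46 RPKM. Il7r (0.121 and 0.156 RPKM) and Epor (0.0642 and 0.0481 RPKM), receptors of lymphoid and erythroid growth factors, lay below 1 RPKM.

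**Figure D4:**
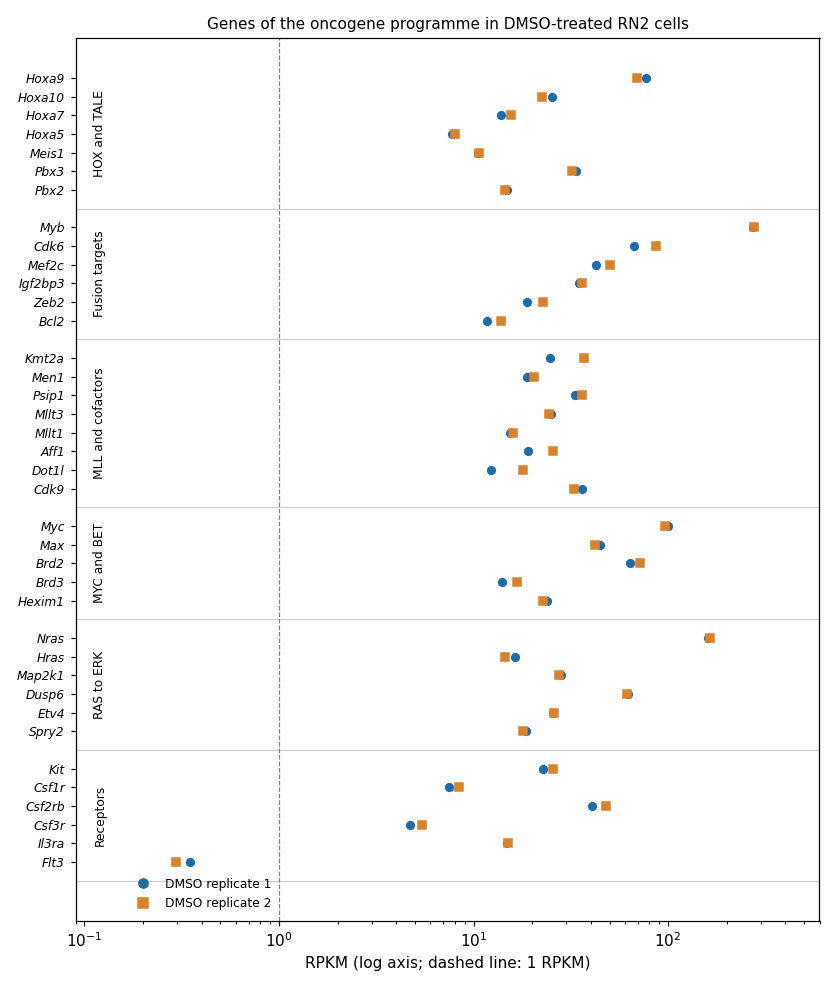
The x axis is RPKM on a log scale, and the rows are genes of the oncogene programme in 6 blocks, with circles for replicate 1 and squares for replicate 2. Myb at 273 and 275 RPKM and Nras at 160 and 164 RPKM are the highest, and Flt3 is the single gene of the plot under 1 RPKM.

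Survival genes were led by Mcl1. Among the antiapoptotic genes, Mcl1 stood at 82.1 and 78.4 RPKM and held 72.5 ± 1.63% of their summed level, 6.19 ± 0.151 times as high as Bcl2l1 (13.03 and 12.9 RPKM), and Bcl2 stood at 11.8 and 13.9 RPKM. Of the genes that promote cell death, Bax stood at 156 and 119 RPKM, Bak1 at 71.1 and 69.5 RPKM and Bid at 63.0 and 59.0 RPKM, although Bax shares exon sequence with an overlapping gene on its own strand. Bcl2l11, which encodes BIM, was lower at 4.56 and 4.68 RPKM, and Hrk was listed at 0. Of the 18 genes of the family 13 were detected.

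Inhibitors and drivers of the cell cycle were both expressed. Trp53, which encodes p53, stood at 87.4 and 84.2 RPKM, and its targets Ccng1 (80.7 and 79.4 RPKM), Cdkn1a, the inhibitor p21 (66.2 and 66.7 RPKM), and Mdm2, which degrades p53 (30.2 and 30.1 RPKM), were all detected. Cdkn2a, the locus of p16 and ARF, stood at 16.8 and 20.1 RPKM, while Cdkn2b beside it was near the detection level (1.19 and 0.856 RPKM). Of 25 cyclins, their kinases and proliferation genes 24 were detected, with a median of 61.5 RPKM. Pcna, the sliding clamp of DNA replication, stood at 394 and 355 RPKM, Cdk4 at 317 and 284 RPKM, Top2a at 109 and 133 RPKM and Mcm3 of the replicative helicase at 103 and 107 RPKM.

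The G1 genes differed within their families. Cdk4 was 4.02 ± 1.07 times as high as Cdk6, with an overlap of its exons with Tspan31. Among the D cyclins Ccnd3 (106 and 95.1 RPKM) lay above Ccnd1 and Ccnd2 (20.4 and 25.5 RPKM) in both libraries, at 2.70 ± 0.349 times the level of Ccnd1. Ccna1, a cyclin of germ cells that some leukaemias express, was listed at 0.

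Chromatin repressors were broadly detected, 24 of 26. Ezh2, the methyltransferase of Polycomb complex PRC2, stood at 52.6 and 53.6 RPKM and was 9.28 ± 0.580 times as high as Ezh1 (5.42 and 6.05 RPKM). Suz12 stood at 57.4 and 60.2 RPKM, and Bmi1, of the other Polycomb complex, at 28.7 and 27.2 RPKM. Dnmt1, the maintenance DNA methyltransferase, stood at 51.2 and 67.1 RPKM, 7.01 ± 0.208 times as high as Dnmt3a (7.46 and 9.38 RPKM), which methylates new sites. Tet3 (10.2 and 13.3 RPKM) and Tet2 (8.10 and 11.9 RPKM), which oxidise methylated DNA, had ranges over the libraries that overlap, and Tet1 lay at 0.0604 and 0.108 RPKM.

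Surface antigens studied in myeloid leukaemia were mostly high, with 26 of 30 detected and a median of 50.5 RPKM. After Ly6c2, the highest were Cd24a (404 and 373 RPKM), Cd47, the signal that keeps phagocytes away (272 and 262 RPKM), and Fcgr3, a receptor for antibodies (181 and 169 RPKM). Clec12a, a lectin of myeloid cells, stood at 119 and 109 RPKM, Itgam, which encodes CD11b, at 69.5 and 82.5 RPKM, and Cd33 at 42.2 and 50.4 RPKM. Il1rap stood at 5.65 and 6.38 RPKM, Cd274, which encodes PD-L1, at 1.35 and 1.46 RPKM and Havcr2, which encodes TIM-3, at 0.662 and 0.651 RPKM.

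In glycolysis, 1 isoform held nearly all of the level for aldolase, pyruvate kinase and lactate dehydrogenase. Of 34 genes of glucose uptake and glycolysis 25 were detected, with a median of 14.5 RPKM, and the list held 1.11 ± 0.0330% of the summed RPKM. The lower part of the pathway was high. Pkm, pyruvate kinase, stood at 797 and 821 RPKM, Pgam1, phosphoglycerate mutase, at 701 and 647 RPKM, Aldoa, aldolase, at 677 and 621 RPKM, Gapdh at 674 and 620.5 RPKM and Ldha, which makes lactate, at 672 and 618 RPKM. Ldhb, the other main lactate dehydrogenase, stood at 0.161 and 0.161 RPKM, and Ldhc and Pklr were listed at 0. Exons of Aldoa, Gapdh and Tpi1 overlap those of Fam57b, Iffo1 and Spsb2.

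The upper steps were lower and less exclusive. The glucose transporter Slc2a1 stood at 30.0 and 27.1 RPKM and the related Slc2a6 at 13.5 and 13.8 RPKM, while Slc2a3 was near the detection level (1.32 and 1.27 RPKM). Hk3, a hexokinase of myeloid cells, stood at 158 and 170.1 RPKM and held 75.4 ± 1.59% of the hexokinase level, 5.53 ± 0.680 times as high as Hk1 (26.2 and 33.7 RPKM), and its exons overlap Unc5a. Hk2 stood at 22.1 and 25.2 RPKM. Of the phosphofructokinases Pfkp (24.0 and 26.5 RPKM) and Pfkl (24.1 and 25.1 RPKM) had overlapping ranges, and Pfkm was lower (8.14 and 8.49 RPKM). Slc16a1 (20.8 and 19.2 RPKM) and Slc16a3 (14.6 and 16.1 RPKM), the exporters of lactate, were of like level.

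**Figure D5:**
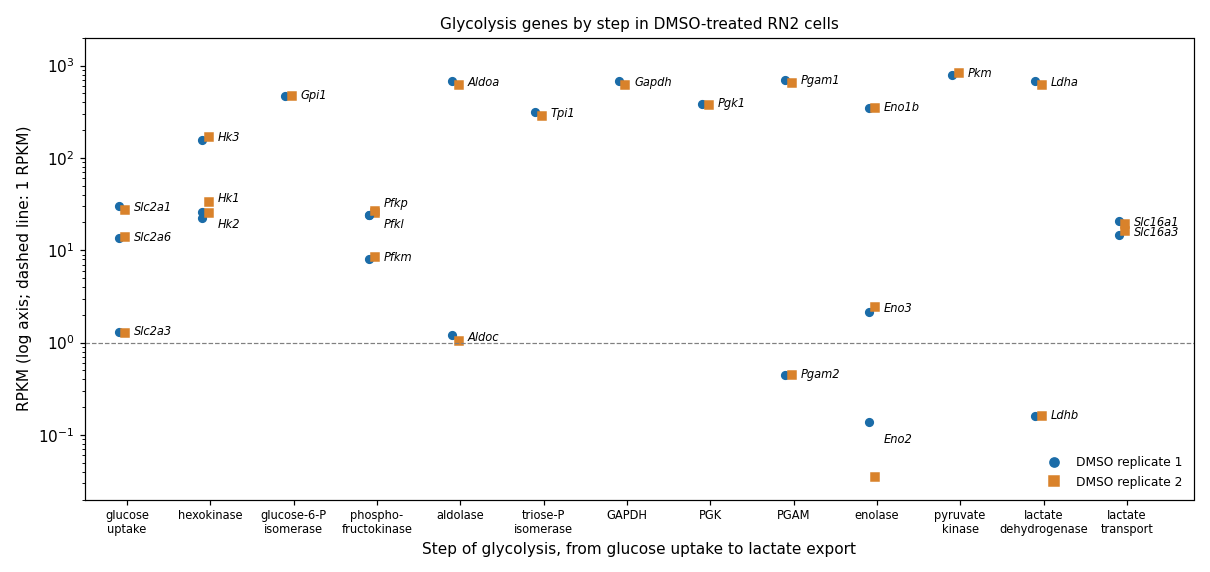
The x axis follows glycolysis from glucose uptake to lactate export and the y axis is RPKM on a log scale, with circles for replicate 1 and squares for replicate 2. The steps from aldolase to lactate dehydrogenase each have a gene above 280 RPKM, while transporters and phosphofructokinases stay at or below 30.0 RPKM. Genes listed at 0 in either library are not drawn.

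The pentose phosphate pathway, which yields NADPH and ribose, was detected in full, 8 of 8 genes, with a median of 118 RPKM. Tkt, transketolase, stood at 330.2 and 329 RPKM, Taldo1, transaldolase, at 334 and 315 RPKM, Pgd at 306 and 315 RPKM and G6pdx, the first enzyme, at 105 and 107 RPKM, whose exons overlap Ikbkg.

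Mitochondrial metabolism was broadly expressed. Of 36 genes of pyruvate entry and the TCA cycle 32 were detected, with a median of 72.2 RPKM. Mdh2, malate dehydrogenase, stood at 300.3 and 280.3 RPKM, Sdhd, a subunit of succinate dehydrogenase, at 167 and 144 RPKM, Idh2 at 133 and 127 RPKM and Cs, citrate synthase, at 111 and 116 RPKM. Among the kinases that switch off pyruvate dehydrogenase, Pdk3 (22.9 and 18.9 RPKM) and Pdk1 (10.02 and 10.2 RPKM) were detected, Pdk2 was not (0.253 and 0.190 RPKM), and Pdk4 was listed at 0. Pcx, pyruvate carboxylase, stood at 2.15 and 2.03 RPKM.

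All 37 genes of the respiratory complex I list, which are nuclear, were detected, with a median of 85.1 RPKM. Of 26 genes of complexes III and IV 23 were detected with a median of 173 RPKM, and all 17 of ATP synthase with a median of 245 RPKM. Ndufa4 (365 and 288 RPKM), kept in the complex I list by its name although it is now counted with complex IV, Cox4i1 of complex IV (643 and 530.3 RPKM) and Atp5b of ATP synthase (783 and 757 RPKM) led their lists. The tissue-restricted isoforms Cox7a1 (4.93 and 1.97 RPKM) and Cox4i2 (0.201 and 0 RPKM) were low. All 37 genes of the complex I list were higher in replicate 1, with a median log2 ratio of 0.34. Their median exon length was 1569 nucleotides, and all detected genes of 1000 to 2000 nucleotides had a median ratio of 0.19.

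Genes that make serine and pass its carbon on to folate were detected at most steps. Psat1 (214 and 211 RPKM), Phgdh (111 and 103 RPKM) and Psph (20.2 and 15.3 RPKM), which make serine, and Shmt2, which passes its carbon to folate in mitochondria (144 and 143 RPKM), were all detected. Mthfd2, the mitochondrial folate enzyme of growing cells, stood at 62.8 and 61.0 RPKM. Gldc, the glycine-cleaving enzyme, was listed at 0. Of the whole list 17 of 22 were detected.

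Genes of glutamine, glutamate and aspartate metabolism were broadly expressed. The glutamine importer Slc1a5 stood at 68.4 and 69.3 RPKM, and Gls2, a glutaminase best known from liver, was listed at 0. Asns, asparagine synthetase, stood at 86.1 and 81.4 RPKM and Got2, the mitochondrial aspartate transaminase, at 111 and 116 RPKM. In all, 20 of 21 genes were detected with a median of 37.4 RPKM. All 30 genes of purine and pyrimidine synthesis were detected, with a median of 51.6 RPKM, led by Nme2 (359 and 336 RPKM), Hprt (201 and 176 RPKM), Aprt (195 and 162 RPKM) and Rrm2, a subunit of ribonucleotide reductase (169.7 and 169 RPKM). Dhodh, which makes pyrimidines in mitochondria, was among the lower members at 9.99 and 8.47 RPKM.

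Sterol genes were expressed along the whole pathway, 27 of 28, with a median of 29.2 RPKM. Fdps, farnesyl diphosphate synthase, was the highest at 337 and 301 RPKM, although its exons overlap another gene, followed by Idi1, the isomerase that acts just before it (130.1 and 121 RPKM). For fatty acids 14 of 21 genes were detected. Fasn, fatty acid synthase, stood at 48.2 and 69.1 RPKM, Acaca at 15.4 and 22.0 RPKM and Scd2, a desaturase, at 134 and 146 RPKM, and Scd2 held 99.0 ± 0.189% of the stearoyl desaturase level, with Scd1 at 0.862 and 1.27 RPKM.

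Fatty acid oxidation was detected in 22 of 26 genes with a median of 15.0 RPKM. Cpt1a, which admits fatty acids to mitochondria, stood at 8.71 and 10.2 RPKM and Acadl at 67.9 and 61.5 RPKM. Ppara, a regulator of oxidation in liver, was listed at 0 in both libraries, and Ppargc1a, a regulator of mitochondria in muscle, stood at 0.00840 and 0 RPKM.

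Polyamine and redox genes included some of the highest metabolic transcripts. Odc1, ornithine decarboxylase, stood at 135 and 130.4 RPKM, Oaz1, its antizyme, at 418 and 337 RPKM and Srm, spermidine synthase, at 128 and 115 RPKM. Amd1 was listed at 6.44 and 0 RPKM while its near-identical copy Amd2 stood at 54.4 and 59.1 RPKM, so the level of this enzyme is uncertain. Both arginases, Arg1 and Arg2, were listed at 0. Of 27 genes of glutathione and peroxide defence 26 were detected with a median of 49.3 RPKM, including Gpx1 (659 and 581 RPKM), Gsr, glutathione reductase (407 and 385 RPKM), Prdx5 (389 and 316 RPKM) and Sod1 (317 and 254 RPKM). Nqo1, a common target of the NRF2 factor, lay at 0.310 and 0.232 RPKM, and Slc7a11, the cystine importer, at 6.05 and 6.15 RPKM.

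Iron genes were led by ferritin. Ftl1 was 2.90 ± 0.269 times as high as Fth1, the heavy chain (696 and 584 RPKM), per length. Alas1, the first enzyme of haem synthesis in most cells, stood at 145 and 148 RPKM, while its erythroid relative Alas2 stood at 0.0904 and 0.181 RPKM. Ncoa4, which delivers ferritin for breakdown, stood at 133 and 137 RPKM. Of 26 genes 25 were detected.

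Protein synthesis dominated the table. The cytosolic ribosomal proteins held 18.7 ± 1.43% of the summed RPKM, with 80 of 82 genes detected and a median of 987 RPKM, and the other 2 were Rpl34 and Rps27, whose copies are given above. All 80 were higher in replicate 1, with a median log2 ratio of 0.28 over the list at a median exon length of 1754.5 nucleotides. All detected genes of 1000 to 2000 exon nucleotides had a median ratio of 0.19. All 32 ribosome biogenesis genes were detected with a median of 58.9 RPKM, led by Npm1 (1232 and 1132 RPKM), Ncl (233 and 244 RPKM), Nop56 (179 and 169 RPKM) and Nop58 (159.7 and 166 RPKM). Of 30 chaperones 27 were detected with a median of 231 RPKM, and after Ppia and Hspa8 the highest was Hsp90ab1 (1079 and 1151 RPKM). The heat-induced genes Hspa1b (0.673 and 0.724 RPKM) and Hspa1a (0.465 and 0.412 RPKM) lay below 1 RPKM, and Hspb1 was listed at 0.

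Promoter windows were then described for lists of which at least 80% had a RefSeq window, beside all 32851 RefSeq windows, since 16297 of the 20484 genes of the table, under that share, had one. Windows of the detected genes held a median of 22 CpG pairs, against 7 over all RefSeq windows, which include genes outside the table. Of the windows of detected genes 6.49% held TATAAA. Over the 16297 windows of genes in the table, which miss the 80% mark, the median was 14 CpG pairs and 13.1% held TATAAA. The primary granule windows held a median of 5 CpG pairs and those of the late neutrophil list 3. Among the 19 late neutrophil windows, 42.1% held TATAAA, 42.1% GAGGAAG and 36.8% TTGCNNAA, beside 13.6%, 13.6% and 10.8% of all RefSeq windows. GAGGAAG was held by 50% of the 24 surface antigen windows. CCAAT was held by 75% of the 20 windows of cyclins and cyclin-dependent kinases and 68% of the 25 chaperone windows. It was also held by 61.3% of the 31 TCA cycle windows, beside 37.4% of all RefSeq windows. These lists were named for their high values. Others were lower, with CCAAT in 30.3% of the 33 complex I windows and 6.25% of the 16 BCL2 family windows. For lists of which under 80% had a window the description is void. Among them are the ribosomal proteins (61 of 82 with a window), cholesterol synthesis (21 of 28) and the transcription factors (37 of 48).

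The libraries differed by 2-fold or more, on the log2(RPKM + 1) scale, for 29 genes higher in replicate 1 (0.142% of all genes) and 10 higher in replicate 2 (0.0488%). Of these 39 genes, 34 were listed at 0 in one library. Those with a mean over both libraries of 5 RPKM or more were ranked by the size of the difference. Tceb2, an elongin subunit, stood at 207 and 0 RPKM, Stk16 at 40.3 and 0, Dnajc19 at 40.2 and 0, Rfc4 at 32.7 and 0 and Eif3j1 at 26.7 and 0. In the other direction Usp16 stood at 0 and 19.0 RPKM and Pdss1 at 0 and 12.03. BC117090, a stefin copy, stood at 49.8 and 153 RPKM. Among all genes whose mean reached 5 RPKM, Cbl, a ubiquitin ligase (8.30 and 16.1 RPKM), and Zbed6 (3.91 and 7.88 RPKM) came next in that direction and lay under the 2-fold level on this scale. Of the 1078 genes in the lists used above, the single one apart by 2-fold was Amd1.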

How the data were processed

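The authors deposited 1 table of RPKM with a column for each library, and the 2 DMSO columns were used. STAR, Cufflinks and mm10 appear in the submitters' processing notes with no versions or roles. The annotation and the strand setting are not stated there. Per the labels, Qiazol was used to extract total RNA and the mRNA library kit was directional. The table holds no counts. Depth was therefore estimated from lowly expressed genes (under 0.15 RPKM) with a single annotated transcript longer than 2500 exon nucleotides, taking the most frequent library size for which the value equals 1 read, which is approximate. No test was run and no counting interval was computed. The 49 lists and 33 families, like the libraries, were chosen with earlier results of these data known. The rule for naming genes covered the 40 highest, the 3 line markers and the 4 highest members of each list. It also covered family members, lineage genes listed at 0 and, at a mean of at least 5 RPKM, the 5 genes most apart each way. Not all of these are named in the text. Most ribosomal genes among the 40 highest are named only in the figure of those genes. Further members were named after their values were seen. Listed genes without a row are not analysed here. Some named members and the ratios that need them are not reported here. Positions came from GENCODE M21, in which 19959 symbols were matched, and windows from RefSeq on GRCm38.p6. The depth estimate was tested on simulated data, made with the same exon lengths that the estimate uses. The 2-fold rule, which used a pseudocount of 1 RPKM, was tested there only for finding genes made to differ. False calls were not counted. Python 3.11.15, pandas 2.3.3, numpy 2.4.6 and matplotlib 3.10.9 were used.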

Additional observations from a re-analysis of the deposited data

How the results depend on the processing

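The results come from no test, so the alternatives show how far counts and shares move. No paired analysis was possible because the results come from no test and a single group. The count of detected genes stayed within 1.5 times under every alternative tried. With every gene above 0 in both libraries counted, the macrophage and dendritic cell lists each had 10 members, the eosinophil, B cell, and T and NK cell lists 4 each, the erythroid list 12, stroma 5, the Hoxb, Hoxc and Hoxd clusters 1 and the interferon list 24. At 0.5 RPKM, and equally after rescaling each library to an equal total, the eosinophil list had 2, B cell 1, and T and NK cell 1. At 2 RPKM the eosinophil list had 0 and the sex chromosome list 1. Leaving out a replicate gave 0 to 1 for T and NK cells. Without ribosomal proteins the 100 highest genes held 24.3% of the summed RPKM. The count of genes 2-fold apart, 39, became 355 with a pseudocount of 0.1, 19 with 5, 70 after rescaling to an equal total, 3 among genes detected in both libraries, and 5 without genes listed at 0 in 1 library. With values under 1 RPKM set to 0, Eno3 (2.17 and 2.45 RPKM) held 100% of the level of Eno2 and Eno3, a share that leaves out the far higher copy Eno1b (347 and 343 RPKM), and the highest paralogue held 100% of the lactate dehydrogenases and MYC genes and 99.6% of the stearoyl desaturases. Upper-quartile scaling kept the count of genes 2-fold apart within 1.5 times. Removal of the length trend did so too, but it was applied only to genes detected in both libraries. As 3 of the 39 genes were detected in both, the count could hardly move, and it says nothing about the length trend. The settings without ribosomal proteins, without genes at 0 and without the length trend were chosen after seeing the data. Every other list count, family share and share of the 100 highest genes stayed within 1.5 times, for counts, or 1 SD, for shares, under the alternatives tried. For shares, leaving out a replicate says nothing about stability, because with 2 libraries each one lies within 1 SD of their mean by construction.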

Other observations

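Interferon genes spanned a wide range. Of 27 members 13 were detected (48.1%, near the 46.5% of all genes), with a median of 1.31 RPKM against 0.405 over all genes. Ifitm2, which blocks virus entry, stood at 329 and 269.8 RPKM, Bst2, which tethers virus particles, at 32.3 and 30.2 RPKM, and Ifitm3 at 23.5 and 17.6 RPKM. The classical induced genes Isg15 (1.90 and 0.712 RPKM), Rsad2 (0.698 and 0.611 RPKM), Ifit1 (0.599 and 0.481 RPKM) and Mx1 (0.403 and 0.345 RPKM) were near or below 1 RPKM, while chains of both interferon receptors were detected.

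Of 21 immediate early genes 15 were detected, with a median of 4.12 RPKM. After Myc the highest were Ier2 (54.6 and 51.2 RPKM), Junb (33.4 and 31.1 RPKM) and Zfp36, which destabilises mRNA (22.2 and 18.5 RPKM). Fos stood at 7.92 and 7.49 RPKM, Jun at 2.39 and 2.46 RPKM and Atf3, a stress-induced factor, at 0.294 and 0.132 RPKM. The Y-linked genes Ddx3y (5.04 and 5.03 RPKM), Uty (1.47 and 1.57 RPKM) and Kdm5d (1.34 and 1.51 RPKM) were detected in both libraries of this mouse line, and Eif2s3y was listed at 0.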
